A study of Mus musculus with 4 samples.

Results

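Chemokine genes were followed in Visium sections of mouse lung, where 36 rows of the count tables matched a symbol of the Ccl or Cxcl series or were Cx3cl1 or Xcl1 (Cxcl15 and Ccl21a were set aside), and 30 of them, out of 32285 genes in all, held at least 20 UMIs over the 4 sections. A UMI (unique molecular identifier) marks 1 captured transcript molecule, and each barcoded spot of a Visium slide captures the poly(A) RNA of the tissue above it, so a spot holds several cells of different types. Each of the 4 sections came from its own mouse, with 1 male and 1 female vaped (V) and 1 male and 1 female non-vaped (NV). All mice were C57BL/6J, a common inbred strain, and were young adults when exposure began. V mice breathed e-vapor of a flavored vape juice from JUUL pens in whole body chambers, 4 h daily and 5 d weekly for 9 wk, and NV controls breathed air. The labels name the tissue as upper pulmonary branches, and the 6 alveolar markers used below, such as Sftpc and Hopx, were all detected in each section.

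Chemokines are small secreted proteins that bind seven-pass membrane receptors on leukocytes and direct their movement. CXC chemokines with an ELR motif attract neutrophils through Cxcr2, the interferon-inducible CXC chemokines attract activated T cells through Cxcr3, and many CC chemokines attract monocytes, eosinophils or dendritic cells. Homeostatic chemokines such as Cxcl12, Cxcl13 and Ccl19 place lymphocytes and progenitor cells in tissues at rest, and in the lung macrophages, fibroblasts, endothelium and epithelium are all known sources.

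Between 473 (NV female) and 2053 (V female) spots and between 6957392 (NV female) and 34308556 (V female) UMIs were held by a section, so counts were deepest in the V female. Spots whose alveolar markers reached 50% of their level over all spots were called parenchyma, and the others, rich in cardiac muscle, airway and connective tissue transcripts, were called hilar. The NV male had 158 hilar spots, the NV female 125, the V male 1 and the V female 433, so the V male section was almost pure parenchyma. The adventitial fibroblast markers summed to 1246 and 1592 CPM (UMIs scaled to the total of the section) in the NV sections, while the V male had 179 CPM and the V female 1557 CPM, with 6 of 6 markers detected in every section. Barcodes shared by a pair of sections numbered between 277 and 1167, and a barcode marks a position on the slide, not a cell.

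The 30 chemokine genes together made up 791 CPM of the NV male, 977 of the NV female, 778 of the V male and 742 of the V female section. Visium counts 1 UMI per transcript near its 3′ end, so CPM were compared between genes without division by length. The V female held UMIs of all 30, and the other sections of 28 or 29. The 6 matched rows below 20 UMIs were Cxcl3, with 5 UMIs, and Ccl1, Ccl21b, Ccl21c, Ccl26 and Ccl27b, each at 0. Just inside the threshold were Cxcl2, with 28 UMIs, and Ccl28, with 43. A further 6 rows that repeat the symbols of Ccl19, Ccl21 and Ccl27 copies held 0 UMIs, and because these genes have near-identical copies in the mouse genome, the counts of Ccl19 and Ccl27a are uncertain.

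**Figure D1:**
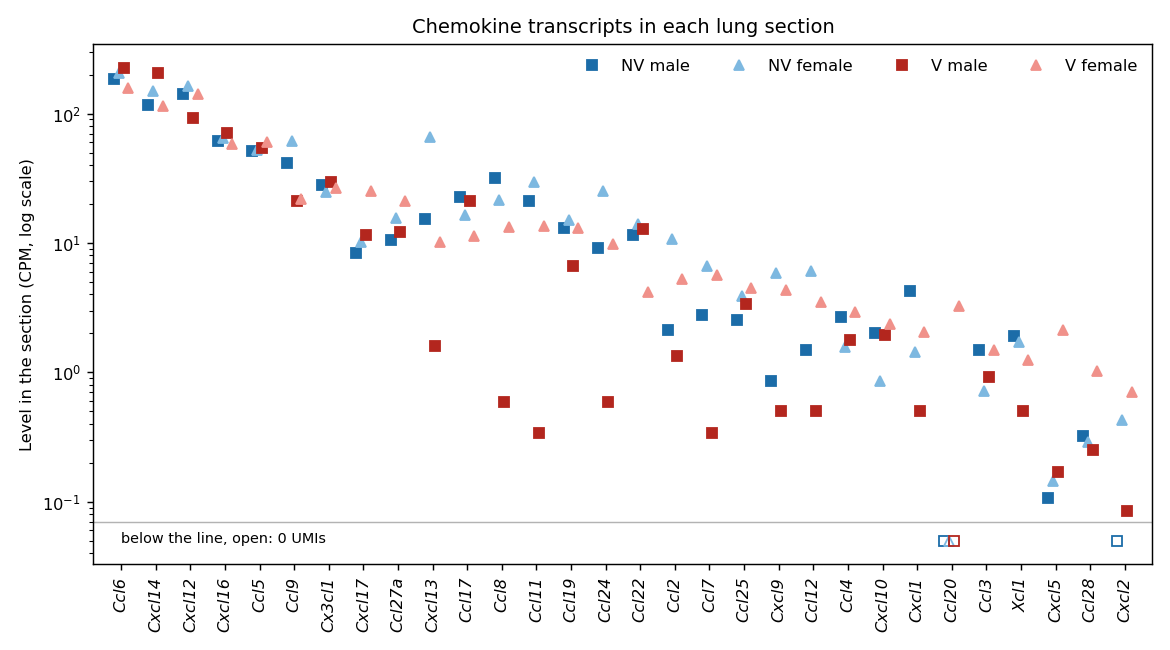
Level of each of the 30 chemokine genes (x axis, by total UMIs) in each section (y axis, CPM on a log scale), with NV in blue, V in red, males as squares and females as triangles. Levels span from 227 CPM (Ccl6, V male) to single UMIs, and the V male lies far below the other sections for Cxcl13, Ccl8, Ccl11, Ccl24 and Ccl7.

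In GRCm38, 11 of the 30 genes lie on chromosome 11 and 7 on chromosome 5. The monocyte and eosinophil chemokine genes Ccl2, Ccl7, Ccl11, Ccl12 and Ccl8 share the plus strand of chr11:82035571-82116799, a span of 81.2 kb. Ccl5, Ccl9, Ccl6, Ccl3 and Ccl4 lie in chr11:83525778-83664683, and Ccl22, Cx3cl1 and Ccl17 lie in chr8:94745590-94812036. Promoter windows from RefSeq (build GRCm38.p6, 250 bases before to 50 after the start) were matched for 21 of the 30 genes. Both strands were searched for the NF-kB motif by its usual degenerate form, for AP-1 as TGANTCA and for a GAS element (bound by STAT factors) as TTCNNNGAA. The NF-kB motif was found in 6 of the 21 genes against 4.51% of all 32851 windows, AP-1 in 5 against 7.81% and GAS in 2 against 8.30%, and a match is a description of letters only. The shares are in unlike units, since a gene was counted once if any of its windows matched (Ccl27a had 3 windows and Ccl25 2) and the background counts windows. Cxcl1, Cxcl2 and Cxcl10 each held 2 NF-kB matches. Shown here, 5′ to 3′ with matches in capitals, are the windows of 2 pairs of nearby genes whose levels are described below: Ccl9 (chr11:83578587-83578886, minus strand, 1 NF-kB and 1 AP-1 match) with Ccl6 (chr11:83593038-83593337, minus strand, no match), and Ccl17 (chr8:94810203-94810502, plus strand, 1 GAS match) with Ccl22 (chr8:94745434-94745733, plus strand, no match).
Ccl9: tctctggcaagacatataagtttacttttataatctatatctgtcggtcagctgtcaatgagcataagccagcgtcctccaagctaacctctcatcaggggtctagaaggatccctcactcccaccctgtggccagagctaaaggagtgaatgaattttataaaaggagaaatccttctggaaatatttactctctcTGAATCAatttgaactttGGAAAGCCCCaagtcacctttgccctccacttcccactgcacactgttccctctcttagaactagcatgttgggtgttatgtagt
Ccl6: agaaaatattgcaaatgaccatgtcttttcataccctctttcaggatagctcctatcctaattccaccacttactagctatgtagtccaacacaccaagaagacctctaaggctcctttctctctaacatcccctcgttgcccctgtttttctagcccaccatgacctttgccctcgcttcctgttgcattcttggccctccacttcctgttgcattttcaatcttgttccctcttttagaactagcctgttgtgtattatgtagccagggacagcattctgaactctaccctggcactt
Ccl17: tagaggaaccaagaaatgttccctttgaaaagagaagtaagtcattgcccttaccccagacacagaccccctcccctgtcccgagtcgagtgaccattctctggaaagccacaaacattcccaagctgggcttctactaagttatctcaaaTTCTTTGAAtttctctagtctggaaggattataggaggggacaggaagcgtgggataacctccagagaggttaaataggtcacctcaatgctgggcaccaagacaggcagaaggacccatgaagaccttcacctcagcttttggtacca
Ccl22: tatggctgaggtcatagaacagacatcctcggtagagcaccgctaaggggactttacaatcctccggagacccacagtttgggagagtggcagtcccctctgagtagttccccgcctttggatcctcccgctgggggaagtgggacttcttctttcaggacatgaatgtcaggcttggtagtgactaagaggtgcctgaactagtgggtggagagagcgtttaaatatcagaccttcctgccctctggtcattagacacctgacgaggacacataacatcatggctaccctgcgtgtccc

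Ccl6, a myeloid CC chemokine of rodents that binds Ccr1, was the most abundant member. The NV male had 185 CPM, the NV female 207 CPM, the V male 227 CPM and the V female 157 CPM. The V sections lay on either side of the NV sections. Ccl9, its neighbour on the chromosome and another Ccr1 ligand, was at 41.2 and 61.1 CPM in NV (male, then female) and at 21.2 and 21.7 CPM in V. Both V sections were below both NV sections, and the 2 V values were nearly equal.

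Among the homeostatic chemokines, Cxcl14, an epithelial and stromal chemokine, was at 117 and 150 CPM in NV and at 206 and 114 CPM in V (male and female, here and in the values that follow). Cxcl12, the Cxcr4 ligand of stroma and endothelium, was at 141 and 163 CPM in NV and at 91.8 and 143 CPM in V. Over whole sections the V male stood apart for both genes, above the rest for Cxcl14 and below for Cxcl12. In parenchyma spots alone Cxcl14 was at 139 and 236 CPM in NV and at 206 and 170 CPM in V, the NV female being highest. Cxcl12 was at 151 and 186 CPM there in NV and at 91.8 and 162 CPM in V, the V male still being lowest. Over whole sections again, Cxcl13, the B cell chemokine that binds Cxcr5, was at 15.3 and 66.4 CPM in NV and at 1.60 and 10.1 CPM in V. The 4 Cxcl13 values spanned a 41.5-fold range, the NV female being the highest. Ccl19, a Ccr7 ligand, was at 13.0 and 15.1 CPM in NV and at 6.65 and 13.0 CPM in V. Ccl27a, known for attracting T cells to skin, was at 10.5 and 15.5 CPM in NV and at 12.2 and 21.2 CPM in V. Groups overlapped for both. Ccl25, the Ccr9 ligand, was low in all sections, at 2.56 and 3.88 CPM in NV and at 3.37 and 4.49 CPM in V.

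The transmembrane chemokines Cxcl16 and Cx3cl1 varied little between sections. Cxcl16, a transmembrane ligand of Cxcr6, was at 61.0 and 64.8 CPM in NV and at 70.3 and 57.8 CPM in V. Cx3cl1 (fractalkine), which tethers Cx3cr1-bearing cells to endothelium and epithelium, was at 28.2 and 24.7 CPM in NV and at 29.5 and 26.4 CPM in V. The highest section exceeded the lowest by 1.22-fold for Cxcl16 and by 1.195-fold for Cx3cl1. Cxcl17, a chemokine of airway mucosa, was at 8.42 and 10.2 CPM in NV and at 11.4 and 25.2 CPM in V, both V sections being higher.

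Inflammatory CC chemokines were led by Ccl5, a chemokine made by T and NK cells, at 51.4 and 52.2 CPM in NV and at 53.7 and 60.0 CPM in V. Its groups did not overlap, though the highest section was only 1.17-fold above the lowest. Ccl8, a monocyte chemokine, was at 32.0 and 21.4 CPM in NV and at 0.589 and 13.3 CPM in V, the V male value resting on 7 UMIs. Ccl2, the main Ccr2 ligand, was at 2.13 and 10.6 CPM in NV and at 1.35 and 5.30 CPM in V. Ccl7, another Ccr2 ligand, was at 2.77 and 6.61 CPM in NV and at 0.337 and 5.65 CPM in V. In both groups the female was higher than the male for Ccl2 and Ccl7. Cxcl9, an interferon-inducible Cxcr3 ligand, followed the same order, at 0.852 and 5.89 CPM in NV and at 0.505 and 4.34 CPM in V. Hilar spots held 23.1% and 45.8% of the UMIs in NV and 0.0019% and 45.6% in V, and their part in this order was not tested. In parenchyma spots alone Ccl2 and Cxcl9 kept the order, but NV Ccl7 was at 3.05 CPM in the male and 2.65 CPM in the female.

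The eosinophil and type 2 chemokines comprised Ccl11 and Ccl24 (eotaxins, ligands of Ccr3) and Ccl17 and Ccl22 (ligands of Ccr4, made by dendritic cells). Ccl11 was at 21.2 and 29.8 CPM in NV and at 0.337 and 13.4 CPM in V, the V male holding 4 UMIs. Ccl24 was at 9.06 and 25.2 CPM in NV and at 0.589 and 9.88 CPM in V. Ccl17 was at 22.6 and 16.4 CPM in NV and at 21.0 and 11.3 CPM in V. The V male thus held almost no eotaxin transcripts while its Ccl17 level was near that of the NV male. Ccl22 was at 11.5 and 13.9 CPM in NV and at 12.7 and 4.20 CPM in V, the V female being lowest.

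The 10 members below 200 UMIs were Ccl12, Ccl4, Cxcl10, Cxcl1, Ccl20, Ccl3, Xcl1, Cxcl5, Ccl28 and Cxcl2, with between 28 and 181 UMIs in all. Ccl20, the Ccr6 ligand of mucosal epithelium, was the most uneven of them. Its 112 UMIs were all in the V female, where they made 3.26 CPM, and the other sections held 0 UMIs, which allows up to 0.320 CPM (NV male), 0.431 CPM (NV female) and 0.253 CPM (V male), the level of 3 UMIs. Of these UMIs, 95 were in hilar spots and 70.5% were in the spots richest in club cell markers, which held 14.6% of all UMIs of that section. Cxcl5, a neutrophil chemokine of lung epithelium, had 73 of its 77 UMIs in the V female, 48 of them in hilar spots.

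The question of the design was whether vaping changed these genes, and V was compared with NV on UMIs summed over each section by edgeR's quasi-likelihood test. No chemokine gene passed an adjusted p under 0.05 with a log2 fold change over 0.25 in size, and 0 of 26 members tested were called, as were 0 of 14570 genes (0.0%). Of all genes, 248 had an unadjusted p under 0.05, among the members only Ccl9, and DESeq2's Wald test called 8 genes and limma 0, with no member among them. The other 4 members, Ccl20, Cxcl5, Ccl28 and Cxcl2, were removed by the filter on low counts. The median log2 fold change was -0.37 over the members and 0.025 over all genes tested, 17 members being lower and 9 higher in V. For a single gene, the smallest two-sided p that an exact permutation of 2 against 2 mice allows is 0.33.

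Ccl9 was closest to a call, with a log2 fold change of -1.27 ± 0.27 (SE) and an adjusted p of 0.9997 by edgeR. Cxcl13 had a larger difference, -2.70 ± 1.197 (SE), and Cxcl17 was the highest, 1.01 ± 0.52 (SE), each with an adjusted p of 0.9997. Ccl8, Ccl11 and Ccl24 had log2 fold changes between -1.82 and -1.59 with SEs between 1.33 and 1.44, not far below the differences themselves. By contrast Cxcl16 (-0.0080 ± 0.15), Cx3cl1 (0.052 ± 0.16), Ccl5 (0.12 ± 0.20) and Ccl6 (-0.074 ± 0.22) had smaller SEs and lay within 1 SE of 0. With 2 sections per group these SEs do not exclude moderate changes. In parenchyma spots alone Ccl5 was at 61.97 and 76.7 CPM in NV and at 53.7 and 92.4 CPM in V (0.099 ± 0.30, SE). Both V sections were below both NV sections for 5 tested members (Ccl9, Cxcl13, Ccl8, Ccl11 and Xcl1), against 14.4% of all genes tested, and above for 2 (Ccl5 and Cxcl17), against 12.6%.

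Interstitial macrophage markers (C1qa, C1qb, C1qc, Csf1r, Cd163 and Folr2, all detected) summed to 426 and 638 CPM in NV and to 191 and 379 CPM in V, and B and plasma cell markers to 1291 and 1510 CPM in NV and to 295 and 450 CPM in V. Alveolar macrophage markers went the other way, at 263 and 362 CPM in NV and at 684 and 517 CPM in V. The part of these cell types in the chemokine values was not tested, and in summed sections fewer cells of a type and less RNA per cell cannot be told apart. Without the V female, edgeR called Cxcl13, Ccl8, Ccl11 and Ccl24 lower in the V male than in NV (log2 fold changes from -6.32 to -4.80, 811 genes called), and without the V male 0 members and 21 genes were called.

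**Figure D2:**
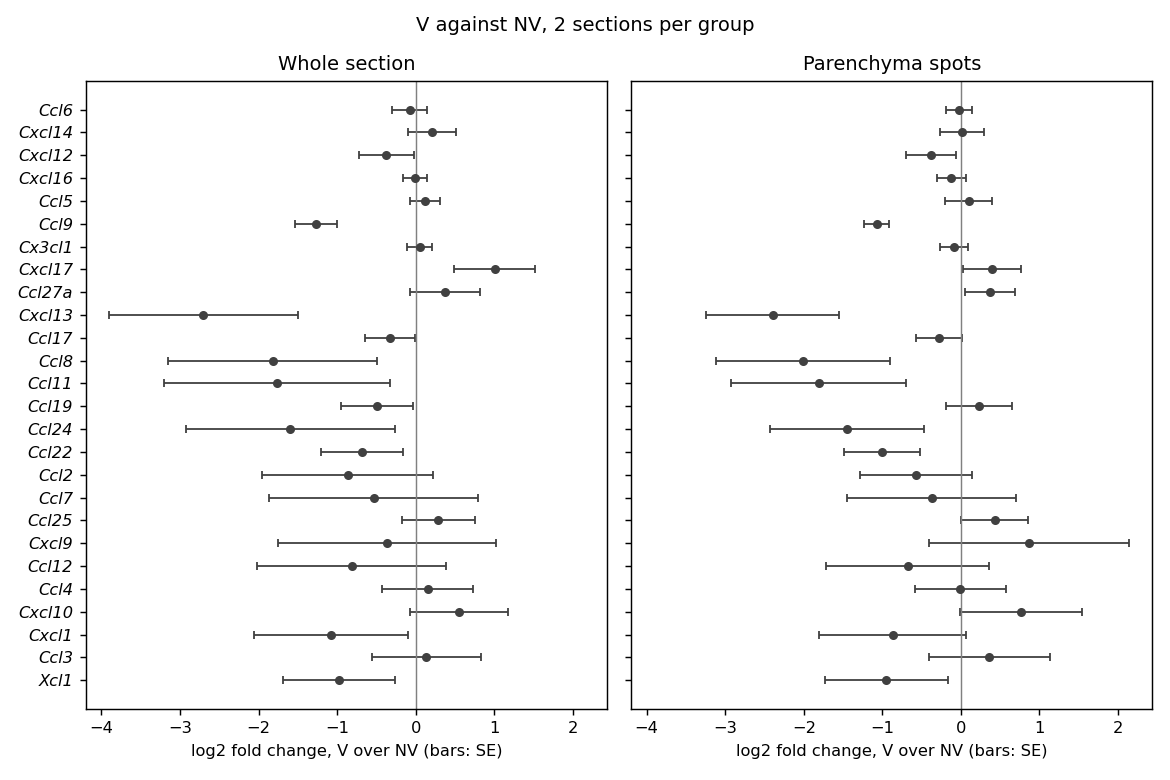
log2 fold change of V over NV with its SE for the 26 members tested, over whole sections (left) and in parenchyma spots (right). Ccl9 lies at -1.27 and -1.07 with short bars, Cxcl13, Ccl8, Ccl11 and Ccl24 lie far to the left with long bars, and no point was called.

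The comparison was repeated in parenchyma spots alone, since the sections held unequal hilar tissue. These spots still differed in make-up between sections. Adventitial fibroblast markers were at 1030 and 1127 CPM there in NV and at 179 and 1123 CPM in V. Club cell markers were at 11257 and 1247 CPM in NV and at 287 and 9368 CPM in V. The part of these differences in the chemokine values was not tested. Again 0 of 26 members and 0 of 14348 genes (0.0%) were called by edgeR, with 380 genes and 2 members (Ccl9 and Cxcl13) at an unadjusted p under 0.05. DESeq2's Wald test called 10 genes, Ccl9 among them (adjusted p = 0.0483), and limma called 0. The median log2 fold change was -0.20 over the members and 0.0084 over all genes. Ccl9 was at 39.9 and 46.7 CPM in NV and at 21.2 and 19.6 CPM in V, and its log2 fold change was -1.07 ± 0.16 (SE, adjusted p = 0.9992 by edgeR). Cxcl13 was at 17.6 and 43.3 CPM in NV and at 1.60 and 9.21 CPM in V (-2.40 ± 0.85, SE). Both genes were lower in each V section than in each NV section.

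Ccl22, Ccl8, Ccl11, Ccl24 and Xcl1 were also lower in both V sections, so that 7 of 26 members tested were, against 17.1% of all genes, and Ccl25 alone was higher in both, against 14.4%. Ccl22 was at 14.4 and 21.0 CPM in NV and at 12.7 and 4.87 CPM in V. Ccl11 was at 13.3 and 14.1 CPM in NV and at 0.337 and 7.07 CPM in V. Its parenchymal level in the V male was thus the outlying one, while for Ccl22 it was the V female. Without the V male, edgeR called 4 members lower (Ccl9, Cxcl13, Ccl8 and Ccl22, among 291 genes), and without the V female it called 7 (Ccl9, Cxcl13, Ccl8, Ccl11, Ccl24, Cxcl12 and Ccl7, among 1483 genes). The log2 fold change of Ccl9 was -1.10 and -1.03 in these fits, in which 1 V section stands for the group and its spread is taken from the NV pair.

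Interstitial macrophage markers were lower in the V parenchyma too, at 388 and 466 CPM in NV and at 191 and 345 CPM in V. Alveolar macrophage markers were higher there, at 317 and 553 CPM in NV and at 684 and 755 CPM in V. In spots richest in interstitial macrophage markers Ccl9 was at 75.3 and 152 CPM in NV and at 32.0 and 43.1 CPM in V, while the markers themselves were at 1323 and 1880 CPM in those NV spots and at 667 and 936 CPM in those V spots. Ccl9 and the markers were thus both lower in the V spots, and the part of the macrophage content in the Ccl9 values was not tested. At equal depth (spots thinned to 3000 UMIs), a Ccl9 UMI was held by 12.2% of NV male spots (95% Clopper-Pearson interval from 9.89 to 14.8%), 12.8% of NV female spots (9.78 to 16.4%), 6.31% of V male spots (5.08 to 7.73%) and 6.12% of V female spots (5.07 to 7.32%), after 52 to 224 shallower spots per section were left out. Before thinning the shares were 29.8% and 39.96% in NV and 13.7% and 25.04% in V, and intervals cover counting error only.

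Hilar and parenchyma spots of the same section were then compared in both NV sections and the V female, with the section as a block, since the V male had 1 hilar spot. The chemokines divided between the regions. Of 23 members tested, 10 were called higher in hilar spots, where 22.7% of 13526 genes were, and 6 were called lower, where 18.8% were. The median log2 fold change was 0.67 over the members and -0.029 over all genes. Relative to totals, TMM scaling raised hilar fold changes by 0.42 on the log2 scale. With total UMIs in its place, the 10 members called higher and the 6 called lower were called again, Ccl6, Cxcl12 and Ccl17 were also called lower, and over all genes the split moved from 3072 higher and 2540 lower to 1869 and 6970. With a parenchyma threshold of 25% in place of 50%, 5 members were called higher (Cxcl9, Ccl11, Ccl24, Ccl8 and Ccl27a).

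The genes called higher in hilar spots were Cxcl9, Ccl11, Ccl24, Ccl2, Ccl8, Ccl7, Cxcl1, Ccl19, Ccl9 and Ccl27a, while the monocyte chemokine Ccl12 was not called (0.67 ± 0.29, SE). Ccl11 was at 13.3, 14.1 and 7.07 CPM in parenchyma spots (both NV sections, male first, then the V female, in this order throughout) and at 47.4, 48.3 and 21.0 CPM in hilar spots, a log2 fold change of 2.14 ± 0.14 (SE, adjusted p = 5.85e-06 by edgeR). Ccl24 was at 6.10, 11.4 and 5.46 CPM in the parenchyma and at 18.9, 41.4 and 15.2 CPM in hilar spots (2.06 ± 0.17, SE). The 2 regions did not overlap for either gene, and the V female was lowest in hilar spots for both. Ccl8 rose by 1.43 ± 0.17 and Ccl9 by 0.84 ± 0.13 on this scale. Cxcl9 had the largest fold change, 2.61 ± 0.39 (SE), on 8, 41 and 149 UMIs. Ccl2 (1.55 ± 0.29) and Ccl7 (1.42 ± 0.36) were called higher, but in the NV male, with 4 hilar UMIs each, their hilar CPM was below the parenchymal one. Ccl19, Cxcl1 and Ccl27a had log2 fold changes from 0.82 to 1.34. Ccl19 was nearly equal in the 2 regions of the V female, at 13.4 CPM in hilar and 12.7 CPM in parenchyma spots. Ccl27a was at 9.70, 14.3 and 18.1 CPM in the parenchyma and at 13.3, 16.9 and 24.9 CPM in hilar spots. Hilar Ccl9 was at 45.6, 78.1 and 24.3 CPM.

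Parenchyma held more Cxcl14, Ccl5, Ccl4, Cxcl16, Ccl22 and Cx3cl1. Cxcl14 was at 139, 236 and 170 CPM in the parenchyma and at 41.0, 47.0 and 48.3 CPM in hilar spots (-1.54 ± 0.14, SE, adjusted p = 1.97e-05), and Ccl5 was at 61.97, 76.7 and 92.4 CPM against 16.1, 23.2 and 21.2 CPM (-1.54 ± 0.13, SE). For both genes the lowest parenchymal value was above the highest hilar one. Cxcl16 fell by 0.99 ± 0.12 and Cx3cl1 by 0.89 ± 0.16 in hilar spots, and Ccl4 and Ccl22 passed narrowly, at adjusted p of 0.0462 each. Cxcl12, at -0.019 ± 0.10, and Ccl6, at -0.34 ± 0.15, were not called after TMM scaling. Hilar spots differed in make-up as well, adventitial fibroblast markers lying between 1965 and 2141 CPM there and between 1030 and 1127 CPM in the parenchyma of the 3 sections, and cardiac muscle markers between 5946 and 18643 CPM against 1768 and 2938 CPM, and which cells hold a transcript cannot be read from this comparison.

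**Figure D3:**
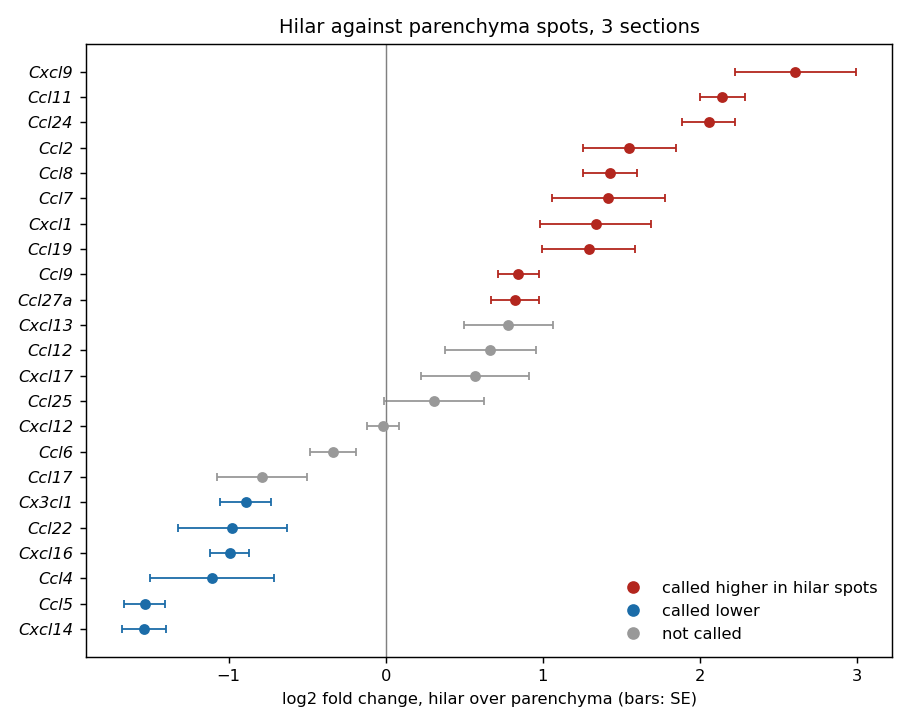
log2 fold change of hilar over parenchyma spots with its SE for 23 members in 3 sections, red where called higher, blue where called lower and grey where not called. Cxcl9, Ccl11 and Ccl24 lie above 2, and Cxcl14 and Ccl5 lie lowest at -1.54.

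To place each chemokine beside cell types, the 10% of spots richest in each of 12 marker lists were compared with the other spots of their section. Over the 12 lists, members were called higher 37 times and lower 15 times. In parenchyma spots only, 19 calls higher and 4 lower were made, and 17 of the calls were made again. A spot is not a cell, and a higher level says that transcripts lie near marker transcripts, not which cell made them.

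In spots rich in alveolar macrophage markers (Marco, Chil3 and others), Ccl6 was higher in all 4 sections. It was at 348, 530, 490 and 395 CPM in rich spots (NV male, NV female, V male and V female, in this order for all lists) while their other spots had 168, 179, 200 and 143 CPM, a log2 fold change of 1.23 ± 0.10 (SE, adjusted p = 1.09e-06 by edgeR). Every rich value was above every value of the other spots, in V and NV alike. Ccl6 and Cx3cl1 were the 2 members called higher, among 1.5% of genes, and Ccl11, Ccl19 and Ccl24 were called lower, among 5.65%. In parenchyma spots only, Ccl6 was called again (1.28), Cx3cl1 (0.30), Ccl11 (-0.48) and Ccl19 (-0.49) were not, and the value of Ccl24 turned to 0.079.

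Spots rich in interstitial macrophage markers held the most calls. In all, 11 of 23 members tested were called higher there, against 3.88% of genes, and none lower. Ccl8 was at 117, 66.4, 0 and 32.4 CPM in rich spots and at 22.8, 14.8, 0.649 and 11.3 CPM in other spots (1.97 ± 0.18, SE). Cxcl13 was at 38.2, 264, 0 and 18.6 CPM against 12.9, 37.4, 1.76 and 9.25 CPM (1.92 ± 0.25, SE). In the V male neither gene had a UMI in rich spots, and both were higher in the other 3 sections. Ccl9 (1.21 ± 0.13), Ccl24 (1.88 ± 0.16) and Ccl17 (1.09 ± 0.15) were higher in 4 of 4 sections, the V male value of Ccl24 resting on 2 UMIs in rich spots against 5 in the others, and Ccl2, Ccl7, Ccl12, Cxcl1, Ccl11 and Ccl6 completed the list. Of these last, all but Ccl6 had 0 UMIs in V male rich spots, and in NV male rich spots Ccl2 rested on 2 UMIs and Ccl7 on 3. In parenchyma spots only, Ccl9, Cxcl13, Ccl17, Ccl8 and Ccl24 were still called higher, and Ccl11 (0.87) and Ccl6 (0.027) were not. Ccl2, Ccl7, Ccl12 and Cxcl1 had no value there.

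Ccl5 marked spots rich in T and NK cell markers, at 115, 120, 107 and 266 CPM against 45.3, 47.4, 49.7 and 48.0 CPM in other spots (1.59 ± 0.17, SE, adjusted p = 1.89e-05). It rose in 4 of 4 sections, most in the V female, and was the single member called higher, among 0.955% of genes, while Ccl8 and Ccl11 were called lower, among 5.51%. In parenchyma spots only, Ccl5 was called again (1.57), Ccl8 was not (-0.44), and the value of Ccl11 turned to 0.30. In neutrophil-rich spots Ccl5 was also called higher (0.54 ± 0.12, SE), among 0.615% of genes, and Ccl8, Ccl11 and Ccl24 lower, among 5.04%, but none of these was called in parenchyma spots only. No ELR chemokine was tested against the neutrophil list, all being removed by the filter.

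Spots rich in dendritic cell markers were higher in 5 members, against 0.749% of genes. Ccl17 was at 72.2, 55.9, 43.9 and 18.8 CPM there and at 19.0, 13.4, 20.1 and 10.8 CPM in other spots (1.36 ± 0.19, SE). Ccl22 was at 31.4, 70.4, 12.5 and 5.37 CPM against 10.1, 9.73, 12.7 and 4.12 CPM (1.37 ± 0.30, SE), being higher in 3 of 4 sections. Its rich spots held 20, 34, 6 and 12 UMIs. Single spots held up to 15 Ccl22 UMIs in the NV male and 25 in the NV female, and their part in this call was not tested. Ccl17 was thus the more even of the pair. Cxcl13, Ccl8 and Ccl9 were called as well. Within the parenchyma alone, Ccl17 (1.32) and Ccl8 (1.24) were called again, and Ccl22, Cxcl13 and Ccl9 were not. Ccl22 was also called higher in spots rich in large vessel endothelium markers, among 0.606% of genes, on 2 of 4 sections, with Ccl8 lower, among 2.98%. With the top 5% of spots that Ccl22 value turned to -0.091. These rich spots held 8, 33, 56 and 10 Ccl22 UMIs, and the 2 highest counts of a V male spot were 24 each.

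Connective tissue and muscle shared several members. In spots rich in adventitial fibroblast markers (Dcn, Col1a1 and others), 8 members were called higher, against 4.67% of genes, and Ccl5 lower, against 2.61%. Ccl2 had the largest difference, 2.33 ± 0.29 (SE), at 3.89, 48.2, 7.41 and 16.2 CPM against 1.97, 7.999, 0.823 and 3.53 CPM, and was higher in 4 of 4 sections. Ccl8, Ccl24 and Ccl9 did the same, while Ccl11, Cxcl13, Ccl7 and Ccl19 were higher in 3. Ccl2 rested on 3 UMIs in NV male rich spots against 17 in the others, and on 7 against 9 in the V male, where a single spot held 6. In the V male, Ccl8 and Ccl24 rested on 2 UMIs each in rich spots against 5 in the others, and those rich spots held 620 CPM of fibroblast markers, less than the other spots of the NV male (1012 CPM). Of the rich spots 44.0%, 53.2%, 0% and 74.3% were hilar. In parenchyma spots only, Cxcl13, Ccl8, Ccl11 and Ccl5 were called again, Ccl2 (1.34, adjusted p = 0.178 by edgeR), Ccl9, Ccl19 and Ccl24 were not, and Ccl7 had no value. Smooth muscle-rich spots were higher in 7 members, against 7.63% of genes, with Ccl12 (1.97 ± 0.34) and Ccl19 (1.71 ± 0.26) in front, and lower in Cxcl14 and Ccl5, against 2.43%. Ccl12 rested on 6, 18, 3 and 28 UMIs in these rich spots. With total UMIs in place of TMM, 3 members were called higher there (Ccl19, Ccl24 and Ccl12) and 3 lower, TMM having moved that comparison by 0.23 on the log2 scale. Within the parenchyma alone, Cxcl12 and Ccl5 were called again, Ccl19 (0.79, adjusted p = 0.159 by edgeR), Ccl8, Ccl11, Ccl24, Ccl2 and Cxcl14 were not, and Ccl12 had no value.

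Epithelial spots were marked by Cxcl17. In club cell-rich spots it was at 33.2, 46.6, 20.2 and 86.9 CPM and in other spots at 5.97, 8.32, 10.7 and 14.7 CPM (2.17 ± 0.22, SE, adjusted p = 2.44e-05), and it was the single member called, among 1.39% of genes. It was higher in 4 of 4 sections, but the V male spots of this class held 992 CPM of club cell markers, against 26390 to 71529 CPM in the other sections, and were below the other spots of the NV male (6871 CPM) and V female (6119 CPM). The V female was highest, its club cell-rich spots holding 50.1% of its Cxcl17 UMIs. Within the parenchyma alone, the log2 fold change of Cxcl17 was 0.95 (adjusted p = 0.0326 by edgeR). In alveolar type 2-rich spots no member was called higher, among 1.67% of genes, and Cxcl13, Ccl11 and Ccl24 were called lower, among 5.95%, and none of the 3 was called in parenchyma spots only. No member was called beside B and plasma cell markers (0.107% of genes called higher) or mesothelium markers (0.761%). Cxcl13 came closest to a call beside B and plasma cell markers (1.99 ± 0.36, SE, adjusted p = 0.0915 by edgeR), and it was called with total UMIs in place of TMM. That scaling also changed the split of calls for 5 other lists. It gave 3 members higher and 1 lower for alveolar macrophage markers (a shift of -0.11 on the log2 scale), 1 and 1 for T and NK cells (-0.11), 2 and 2 for neutrophils, 2 and 0 for large vessels, and 1 and 3 for alveolar type 2 cells.

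**Figure D4:**
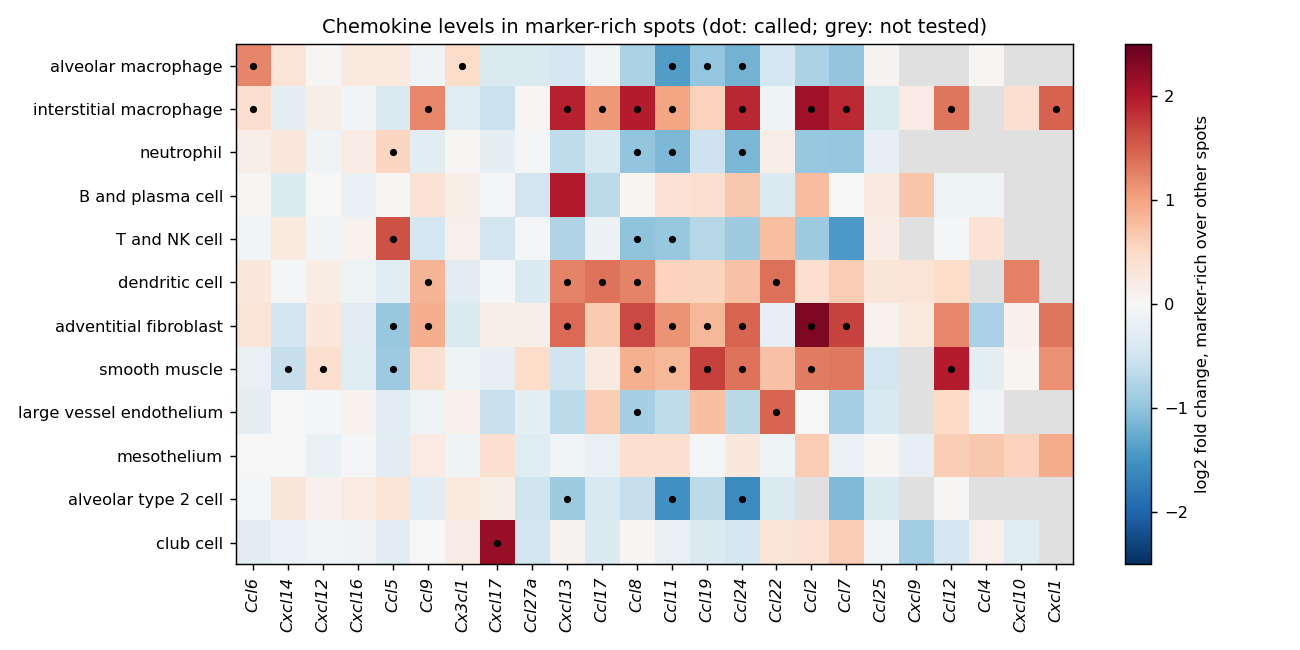
log2 fold change of each member (columns) in the spots richest in each of 12 marker lists (rows) over the other spots, red for higher, blue for lower, grey for not tested and a dot where called. The interstitial macrophage, adventitial fibroblast and smooth muscle rows hold 11, 8 and 7 of the 37 calls higher, and single members mark the club cell (Cxcl17) and T and NK cell (Ccl5) rows.

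Single spots held large amounts of a few members. In the NV female, 1 hilar spot held 82 Cxcl13 UMIs, 17.7% of that section's Cxcl13, and a second held 70. The first also held the section's highest Ccl6 count (49 UMIs), 27 Cd79a and 18 Ms4a1 UMIs of B cells, 5 UMIs of the Cxcl13 receptor Cxcr5 and 189 UMIs of interstitial macrophage markers, and was deep, with 50435 UMIs. The richest 1% of NV female spots held 47.8% of its Cxcl13, against 23.6% (NV male) and 25.6% (V female). A parenchyma spot of the V female held 54 Ccl5 UMIs together with 24 Gzma and 6 Nkg7 UMIs, transcripts of cytotoxic lymphocytes. Widespread members were less uneven, the richest 1% of spots holding between 5.86% and 7.97% of Cxcl12 in each section.

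Ccl17 and Ccl22, Ccr4 ligands whose genes lie on either side of Cx3cl1, met in a few spots. The highest Ccl22 counts, 15 (NV male), 25 (NV female) and 24 (V male), lay in spots with 15, 10 and 17 Ccl17 UMIs, and a second V male spot with 24 Ccl22 UMIs held 13 of Ccl17. In the NV male and V male the first spot was also the highest for Ccl17. Their receptor Ccr4 held 1 UMI over all sections. Of spots with at least 3 Ccl22 UMIs, 4 of 6 (NV male), 2 of 3 (NV female), 2 of 3 (V male) and 6 of 8 (V female) held Ccl17. Ccl22 was found in 20.5%, 22.2%, 7.91% and 14.3% of spots with Ccl17 (in the same order of sections), against 8.67%, 13.1%, 6.13% and 5.55% of all spots. In turn Ccl17 was found in 32.9%, 25.8%, 14.6% and 32.5% of spots with Ccl22, against 13.9%, 15.2%, 11.3% and 12.6% of all spots. In each section Ccl22 was more frequent in spots with Ccl17 than over all spots, with the depth of the spots not matched. Across spots thinned to equal depth, Ccl17 and Ccl22 correlated at 0.066 (NV male), 0.168 (NV female), 0.159 (V male) and -0.023 (V female). The V female thus did not show the pattern at equal depth, where 64 of its 1829 thinned spots held Ccl17 and 28 held Ccl22.

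**Figure D5:**
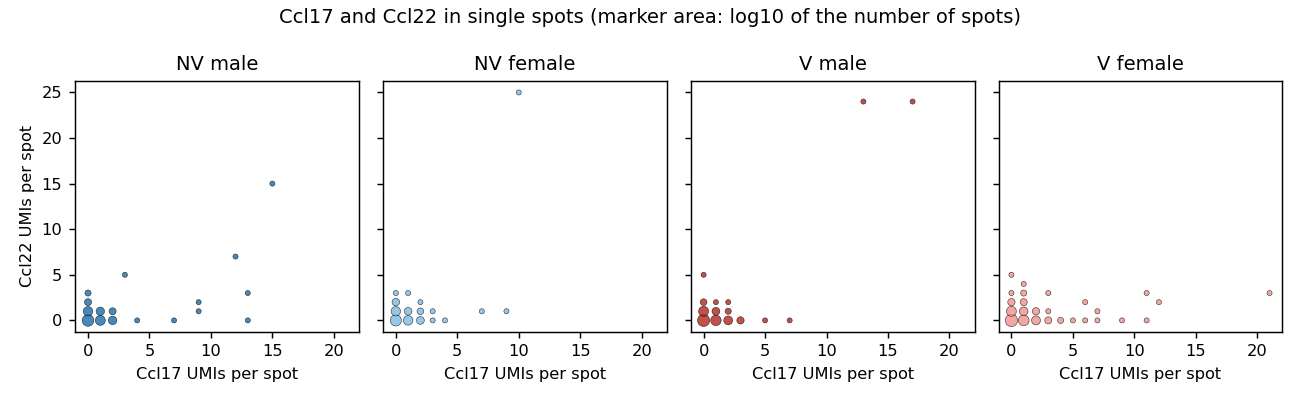
Ccl17 (x axis) and Ccl22 (y axis) UMIs per spot in each section, with marker area growing with the number of spots. Nearly all spots lie near the origin, and spots with 15 or more Ccl22 UMIs (NV male 1, NV female 1, V male 2) also hold at least 10 Ccl17 UMIs.

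The receptors of these ligands were read alongside, with a list of inducer, feedback and adhesion genes (Icam1, Vcam1 and Sele being the adhesion genes). Of 23 receptor genes 17 were tested, and of the 11 genes of that list 8. In either set 0 were called between V and NV in whole sections or parenchyma. The 5 with the most UMIs were Icam1 and Vcam1 (leukocyte adhesion), Nfkbia and Zfp36 (brakes on inflammatory transcription and mRNA) and Ackr3, a scavenger of Cxcl12. Vcam1 was at 103 and 73.2 CPM in NV and at 59.1 and 61.5 CPM in V (-0.56 ± 0.24, SE), and Ackr3 was at 96.9 and 88.3 CPM in NV and at 124 and 80.3 CPM in V. Nfkbia was highest in the V male, at 336 CPM against 91.8 to 154 CPM elsewhere. None of these differences passed the test.

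Between regions, 2 of 16 receptors tested were called higher in hilar spots (Ackr1 and Ackr3), against 22.7% of all genes, and 6 lower, Ccr7 and Cxcr4 among them, against 18.8%. Of the inducer, feedback and adhesion genes, 6 of 7 tested were called lower (Il1b, Nfkbia, Tnfaip3, Zfp36, Icam1 and Vcam1). Ackr3 rose by 0.74 ± 0.12 and Icam1 fell by 1.43 ± 0.12 in hilar spots on the log2 scale. In neutrophil-rich spots 2 of 14 receptors tested were called higher, Cxcr2 (1.61 ± 0.36, SE) and Cxcr4, against 0.615% of genes, and Ackr3 lower, against 5.04%. In T and NK cell-rich spots 4 of 16 were called higher (Ccr7, Cxcr3, Cxcr4 and Ackr2), against 0.955%. In fibroblast-rich spots Ccr2 and Ackr3 were called higher, against 4.67%, and Ccr7 and Cxcr4 lower, against 2.61%. In smooth muscle-rich spots Ackr3 was called higher, against 7.63%, and Cxcr4 and Ackr2 lower, against 2.43%. Of the fibroblast-rich spots 44.0%, 53.2%, 0% and 74.3% were hilar, and of the smooth muscle-rich spots 62.8%, 82.2%, 0% and 52.3% (NV male, NV female, V male and V female). The part of the hilar spots in these receptor calls was not tested. Ccr2 was also called higher in interstitial macrophage-rich (3.88% of genes) and dendritic cell-rich spots (0.749%), and Ackr3 in large vessel-rich spots (0.606%). In alveolar type 2-rich spots Ackr2 was called higher (1.67%) and Ackr3 lower (5.95%), and in alveolar macrophage-rich spots Cxcr4 was called higher (1.5%).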

How the data were processed

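Frozen lung sections were placed on Visium slides. The authors aligned reads with SpaceRanger to mouse build mm10 (Seurat 4.0.3 is also named in the submitters' notes) and deposited the raw UMI count of each gene in each spot. All 4 tables and all spots were used. The members and the gene lists were chosen with earlier results of these data known. Members at 200 or more UMIs are given by level in every section, the others by counts, and in the region and marker comparisons the called members are named.

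Sums per section, or per section and spot class, were tested with edgeR 4.0.16 in R 4.3.3 (filterByExpr, TMM, quasi-likelihood test). Calls needed a Benjamini-Hochberg adjusted p below 0.05 and a log2 change above 0.25 in either direction. CPM were scaled to total UMIs alone. Parenchyma markers were Sftpc, Sftpb, Hopx, Cldn18, Tmem100 and Calcrl, with 27648 CPM over all spots. Marker-rich spots were the 10% with the highest marker CPM and at least 2 marker UMIs, in sections with at least 20 such spots. Tests were checked on simulated data with 200 changed genes, of which edgeR recovered 95.0% in the V against NV settings. The simulated counts spread less between sections than the real ones of V against NV, so this does not give the power of that comparison. Mice of a group differ in sex, so the spread within a group includes sex. Regions and marker lists were compared with the section as a block. Alternatives used DESeq2 1.42.0, limma 3.58.1 on mean CPM with a pseudocount of 1, other thresholds, thinned counts and sections left out. Gene positions are GENCODE vM21's on GRCm38.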

Additional observations from a re-analysis of the deposited data

Results flagged for a closer look

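Ratios of V to NV within each sex were set against counting intervals (95%, exact, from UMIs of 1 section each). For 3 members the intervals lay on opposite sides of 1 in males and females. Ccl6 was 1.22-fold in males (1.15 to 1.30) and 0.76-fold in females (0.717 to 0.806). Cxcl14 was 1.77-fold in males (1.64 to 1.90) and 0.764-fold in females (0.713 to 0.818). Cxcl16 was 1.15-fold in males (1.03 to 1.28) and 0.891-fold in females (0.804 to 0.989). The difference between the sexes was not tested, and with 1 section per sex and group the sex, the mouse and the tissue in the section cannot be told apart. In parenchyma spots alone, Ccl6 was at 211 CPM (NV) and 227 CPM (V) in males and at 226 and 200.3 CPM in females, Cxcl14 at 139 and 206 CPM in males and at 236 and 170 CPM in females, and Cxcl16 at 71.0 and 70.3 CPM in males and at 93.9 and 79.5 CPM in females.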

How the results depend on the processing

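For V against NV, DESeq2's Wald test called 8 genes over whole sections, and in the parenchyma 10 genes and 1 member, Ccl9, while the lack of a filter gave 5 genes in the parenchyma. Leaving out 1 section gave between 0 and 4 members and between 0 and 811 genes over whole sections, and between 0 and 7 members and between 0 and 1483 genes in the parenchyma, always against 0. With the replicate block (the number marks the sex), 0 members and 0 genes were called. The deviations of same-numbered sections correlated at 0.353 over whole sections and 0.0949 in the parenchyma, with 2 pairs. The log2 fold change of Ccl9 lay between -1.54 and -0.95 over whole sections in all alternatives run, and between -1.20 and -0.98 in the parenchyma.

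In hilar spots, a parenchyma threshold of 25% left 5 members called higher in place of 10, and total UMIs in place of TMM, added after the levels were seen, called 8839 genes in place of 5612. For marker-rich spots, 37 calls higher became 21 with DESeq2's Wald test, 19 in parenchyma spots only and 9 with spots thinned to 3000 UMIs, where the dendritic cell list gave no value, and between 25 and 50 with 1 section left out. The 15 calls lower became 5, 4 and 1 in those settings, 26 with no filter, and between 4 and 23 with 1 section left out (9 without the NV male, 7 without the NV female, 23 without the V male and 4 without the V female). The direction turned for 3 calls, Ccl24 beside alveolar macrophage markers (0.079) and Ccl11 beside T and NK cell markers (0.30) in parenchyma spots only, and Ccl22 beside large vessel markers (-0.091) with the top 5% of spots. The causes were not tested. Of the other alternative values of these calls, 414 kept their direction and side of the threshold and 174 kept the direction only. Few UMIs limit Cxcl2, Ccl28, Cxcl5 and Ccl20, and the NV female is the shallowest section. Shares of spots with a UMI moved beyond their counting intervals in most cases when the depth per spot changed.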

Other observations

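Members with few UMIs showed further differences between sections. Xcl1, a lymphotactin of NK and T cells, was at 1.92 and 1.72 CPM in NV (male, then female) and at 0.505 and 1.25 CPM in V. Cxcl1, a neutrophil chemokine, ranged from 0.505 CPM (V male) to 4.26 CPM (NV male). Cxcl10, an interferon-inducible chemokine, was at 2.02 and 0.862 CPM in NV and at 1.94 and 2.36 CPM in V. Ccl12, a mouse monocyte chemokine, was at 1.49 and 6.04 CPM in NV and at 0.505 and 3.47 CPM in V, with the female higher in each group, as for Ccl2 and Ccl7 over whole sections.

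Receptors with lower levels in both V sections included Ccr7, the receptor of Ccl19, at 27.7 and 25.3 CPM in NV and at 16.6 and 10.1 CPM in V (log2 fold change -1.05 ± 0.24, SE, adjusted p = 0.9997 by edgeR). Xcr1, the receptor of Xcl1, was at 4.37 and 3.59 CPM in NV and at 0.505 and 2.33 CPM in V, the V male holding 6 UMIs. Other receptors were higher in both V sections. Ccr1, the receptor of Ccl6 and Ccl9, was at 4.79 and 6.04 CPM in NV and at 10.8 and 7.64 CPM in V. Ccrl2 was at 27.1 and 26.4 CPM in NV and at 39.2 and 30.1 CPM in V. Of all genes tested, 14.4% were lower and 12.6% higher in both V sections. Neutrophil markers were highest in the V male, at 587 CPM against 76.3 to 162 CPM in the other sections, as was the receptor Cxcr2, at 8.16 CPM against 1.44 to 2.24 CPM.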
